A study of Homo sapiens with 8 samples.

Results

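Chromatin accessibility was examined at 4 windows that hold interferon-stimulated genes: the IFIT cluster, the OAS cluster, MX2 with MX1, and ISG15. In hg19 the windows ran over chromosome 10 from 91.04 to 91.20 Mb (IFIT), chromosome 12 from 113.32 to 113.47 Mb (OAS), chromosome 21 from 42.71 to 42.86 Mb (MX2 and MX1) and chromosome 1 from 0.93 to 0.97 Mb (ISG15). The members were the open regions that overlapped these windows after the peaks of all libraries had been merged. They numbered 15 of the 46665 regions of the series, with 4 in the IFIT, 3 in the OAS, 5 in the MX2 and MX1 and 3 in the ISG15 window. The windows were chosen by position and not by any peak value, though with earlier results of these data known.

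The libraries were ATAC-seq libraries, in which a transposase inserts sequencing adapters into open chromatin, of the H1650 line, which derives from a human non-small cell lung cancer. Cells were transfected with siRNAs that match exon 11a of the actin regulator hMENA (siMena11a), with a pool that targets all hMENA (siMena), or with a pool of non-targeting siRNAs (siControl), each at 20 nmol/L, or were left untreated. The gene of hMENA is ENAH, and the isoform with exon 11a, hMENA11a, is typical of epithelial cells. Each of the 4 groups had 2 libraries. The labels do not say that these came from separate cultures, so any p-value measures the spread between these libraries, which may be technical. No annotation of hg19 was used here, so the line was not checked at marker genes and a region was not tied to a single gene, exon or promoter.

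Type I interferon acts through its receptor and the JAK kinases on target genes, whose promoters carry the interferon-stimulated response element. The genes of these windows are among the best known of those targets and encode antiviral effectors. IFIT1, IFIT2, IFIT3 and IFIT5 encode tetratricopeptide repeat proteins, of which IFIT1 and IFIT5 bind RNA with foreign 5′ ends and IFIT2 and IFIT3 form complexes with other members. OAS1, OAS2 and OAS3 sense double-stranded RNA and make the short oligoadenylates that activate RNase L. MX1 and MX2 are dynamin-like GTPases that block incoming viruses, MX1 against influenza virus and MX2 against HIV. ISG15 is a ubiquitin-like protein that is conjugated to other proteins. RIG-I, the RNA sensor named in the design of the study, lies upstream of interferon production. In the RefSeq gene table the order of protein-coding genes is IFIT2, IFIT3, IFIT1B, IFIT1, IFIT5 on chromosome 10, OAS1, OAS3, OAS2 on chromosome 12 and MX2, MX1 on chromosome 21. ISG15 stands between HES4 and AGRN, so a region of its window need not belong to ISG15.

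The response element is shown because it is the sequence by which these genes are known to respond to interferon. RefSeq promoters of GRCh38.p14, from 250 bases before to 50 bases after a transcript start, were matched by symbol for 7 of the 10 genes, with 10 promoters in all (IFIT1, IFIT3 with 2 starts, IFIT5, OAS1, OAS3, MX1 with 3 starts, and ISG15). No promoter was matched for IFIT2, OAS2 and MX2. The core of the element was searched as GAAA, any 2 bases and GAAA, on both strands, and the core of the gamma-activated site as TTC, any 3 bases and GAA, which reads the same on both strands. The first was found in 8 of the 10 promoters and in 6 of the 7 genes, against 1255 of all 35116 promoters (3.57%). At least 2 matches were found in 6 of the 10 promoters, against 91 of all promoters (0.259%). The second was found in 2 of the 10 promoters, 168 bases before the OAS1 start and at the third MX1 start, where it overlaps a match of the first, against 7.66% of all promoters. The table that holds these sequences is in another build than the peaks, so no match was placed inside a peak. Stretches of 5 of these promoters follow 5′ to 3′ on the plus strand, which is the strand of each gene, with complete matches of the response element core in capitals (on the other strand it reads TTTC, any 2 bases and TTTC).
ISG15, chr1:1013372-1013411: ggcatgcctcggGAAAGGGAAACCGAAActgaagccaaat
IFIT1, chr10:89392495-89392541: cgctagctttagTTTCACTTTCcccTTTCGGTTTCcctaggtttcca
IFIT3, second start, chr10:89332423-89332499: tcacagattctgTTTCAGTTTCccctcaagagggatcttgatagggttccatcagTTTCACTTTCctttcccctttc
IFIT5, chr10:89414511-89414573: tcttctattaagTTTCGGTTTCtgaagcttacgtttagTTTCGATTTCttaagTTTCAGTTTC
OAS3, chr12:112938319-112938473: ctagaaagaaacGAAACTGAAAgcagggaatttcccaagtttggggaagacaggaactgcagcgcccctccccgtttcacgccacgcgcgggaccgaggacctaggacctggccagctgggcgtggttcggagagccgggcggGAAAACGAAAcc

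In ISG15 the matches overlap, starting 113 and 107 bases before the transcript start. In IFIT1 they start 116 and 103 bases before it. IFIT5 carries 3 matches, the last of which begins 4 bases before the start and ends 6 bases after it. In OAS3 the matches start 143 and 12 bases before the start.

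The lists differed in length and in the tags behind them, while the fold needed for listing did not follow list length. Replicate 1 held 35472 (siMena11a), 14678 (siMena), 27304 (siControl) and 34782 (untreated) peaks. Replicate 2 held 2832 (siMena11a), 1020 (siMena), 5231 (siControl) and 22424 (untreated). The genome-wide background, a measure of depth in tags per position, was 0.538 to 0.935 in the replicate 1 libraries and 1.09 to 2.88 in the replicate 2 libraries. The deposited fold divides the pileup at a summit by the local background, after 1 is added to both, and is the authors' value. At the genome-wide background, a peak of a replicate 1 library needed a fold of at least 3.72 (siMena11a), 4.06 (siMena), 4.13 (siControl) or 3.90 (untreated) to be listed. In replicate 2 these folds were 3.67 (siMena11a), 3.61 (siMena), 3.67 (siControl) and 3.83 (untreated). The median fold of all listed regions was 6.62 (siMena11a), 6.11 (siMena), 6.49 (siControl) and 6.99 (untreated) in replicate 1. The replicate 2 medians were 4.66 (siMena11a), 4.30 (siMena), 4.93 (siControl) and 6.22 (untreated). A region that is not listed lay below the q threshold of 0.01, and its fold is not known. Folds of different libraries come from separate lists and are set side by side as a description.

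Nearly all listings in the windows came from replicate 1 libraries. The siMena11a replicate 1 library listed 12 of the 15 regions, siMena replicate 1 listed 5, siControl replicate 1 listed 6 and untreated replicate 1 listed 9. Replicate 2 of siMena11a, siMena and siControl listed none, and untreated replicate 2 listed 2. Of all 46665 regions, the replicate 1 libraries listed 74.6% (siMena11a), 30.2% (siMena), 56.7% (siControl) and 72.4% (untreated), and the replicate 2 libraries 5.92% (siMena11a), 2.14% (siMena), 10.9% (siControl) and 46.4% (untreated). Of the 15 regions, siMena11a replicate 1 listed 80.0% (95% exact Clopper-Pearson interval 51.9 to 95.7) and siMena replicate 1 listed 33.3% (11.8 to 61.6). The share was 40.0% (16.3 to 67.7) in siControl and 60.0% (32.3 to 83.7) in untreated replicate 1. In untreated replicate 2 the share was 13.3% (1.66 to 40.5), below the 46.4% of all regions, and for the libraries that listed none the interval reached up to 21.8%. These intervals cover counting error over regions and not the spread between libraries. In 7 of the 8 libraries the interval held the share of all regions.

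**Figure D1:**
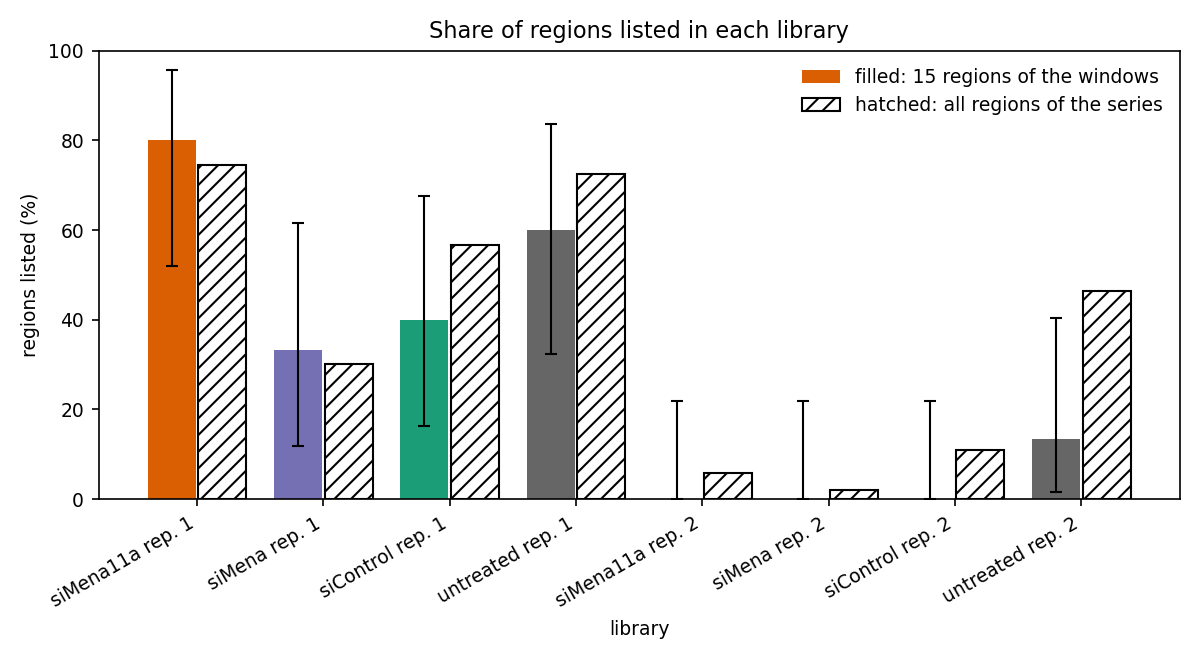
Share of regions listed (%) in each library, with filled bars for the 15 regions of the IFIT, OAS, MX and ISG15 windows (error bars, 95% exact Clopper-Pearson intervals) and hatched bars for all 46665 regions. Replicate 2 of the transfected groups has no filled bar, and untreated replicate 2 stands at 13.3% for the windows against 46.4% for all regions.

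Absence from the short lists was common for regions of this strength. Of the 12 regions that siMena11a replicate 1 listed, with folds from 3.33 to 6.64, none was listed in siMena11a replicate 2, as against 1.23% of the 17259 regions of the series in that fold range. Of the 5 regions of siMena replicate 1, none was listed in siMena replicate 2, against 1.51% of all regions in their fold range. For siControl the figures were 0 of 6 and 10.0%, in a fold range from 4.04 to 8.70. The first MX region sets the upper end of that range, which takes in 20106 of the 26446 regions listed in siControl replicate 1. For untreated cells, 2 of 9 regions were listed again in replicate 2, against 38.5% of the regions with untreated replicate 1 folds between 4.74 and 7.96. Regions of this strength were thus seldom listed in replicate 2 of the transfected groups, whether inside the windows or elsewhere.

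The regions were weak for the lists that carried them. The median fold of the listed members was 5.37 in siMena11a, 4.83 in siMena, 5.75 in siControl and 6.09 in untreated replicate 1, while that of all regions listed in the same libraries was 6.62 (siMena11a), 6.11 (siMena), 6.49 (siControl) and 6.99 (untreated). A fold above the median of all regions was reached by 1 of 12 members in siMena11a replicate 1, by 0 of 5 in siMena, by 1 of 6 in siControl and by 1 of 9 in untreated replicate 1. Of the 2 members of untreated replicate 2, with folds of 6.25 and 4.52, 1 lay above the median of 6.22. Behind these folds stood few tags, from 7 to 21 over the summit.

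**Figure D2:**
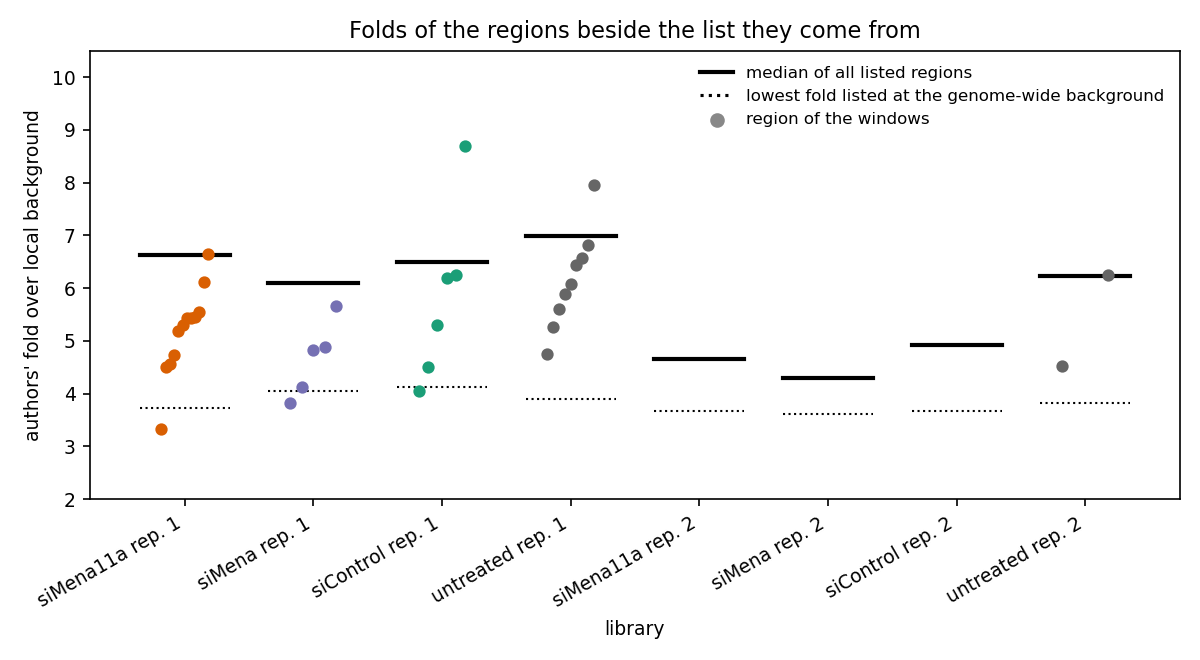
Authors' fold over local background (linear axis) of each listed region of the windows (points), the median of all regions listed in the same library (solid line) and the lowest fold listed at the genome-wide background (dotted line). Points below a dotted line stand on a local background above the genome-wide level, which lets a lower fold pass. At most 1 point per library lies above the solid line.

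Region widths were ordinary, with a median of 429 bp and a range from 225 to 736 bp, beside a median of 394 bp over all regions. Of the 15 members, 7 were listed in 1 library, 2 in 2, 1 in 3 and 5 in 4 libraries. None was listed in 5 or more, as 24.6% of all regions were, so none belongs to the 542 regions (1.16%) open in all 8 libraries. The windows held 2.50 (IFIT), 2.00 (OAS), 3.33 (MX2 and MX1) and 7.50 (ISG15) regions per 100 kb. Chromosomes 10, 12, 21 and 1, taken whole from their first to their last region, held 1.58, 1.64, 1.32 and 1.76. No windows of like gene content were compared, and the ISG15 value rests on 3 regions in 40 kb. The nearest regions outside lay 4.50 and 17.9 kb beyond the IFIT window, 357 and 8.53 kb beyond the OAS window, 54.5 and 18.9 kb beyond the MX2 and MX1 window and 18.2 and 24.6 kb beyond the ISG15 window. Of these 8 neighbours, 7 were listed in 1 library and the left neighbour of MX2 and MX1 in 2, with highest folds from 4.17 to 7.15.

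**Figure D3:**
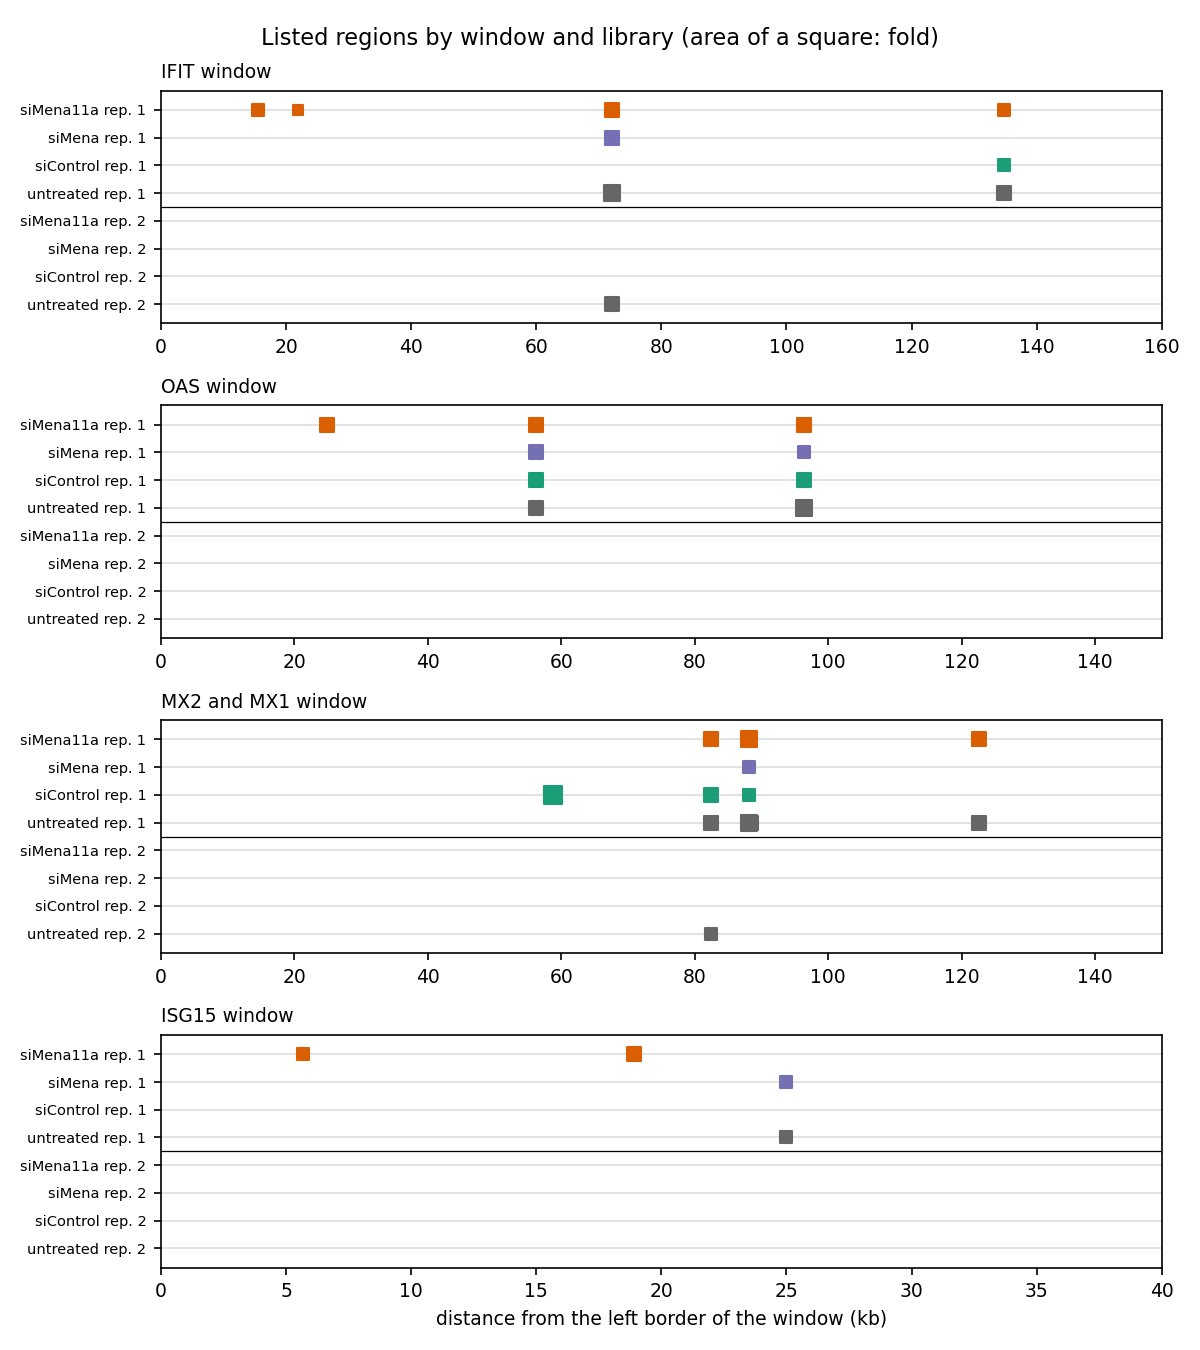
Listed regions along each window, as distance from its left border in kb, with a row per library and squares whose area follows the authors' fold. The left regions of the IFIT and OAS windows and the first pair of the ISG15 window appear in the siMena11a replicate 1 row alone.

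In the IFIT window, which holds the RNA-binding IFIT proteins' genes, the region listed most often was the third, on chromosome 10 from 91111750 to 91112331. Its fold was 5.31 in siMena11a replicate 1, 4.88 in siMena replicate 1, and 6.82 and 6.25 in untreated replicates 1 and 2. Neither siControl library listed it, nor did siMena11a replicate 2 or siMena replicate 2. The tags over its summit were 11 in siMena11a and 11 in siMena replicate 1, against 14 and 16 in the untreated libraries. It was the member listed in both untreated libraries and in neither siControl library, and replicate 1 of both hMENA knockdowns listed it at lower folds than the untreated libraries. The fourth region, from 91174474 to 91175059, reached 4.51-fold in siMena11a replicate 1, 4.51-fold in siControl replicate 1 and 6.09-fold in untreated replicate 1. It was not listed in siMena replicate 1 or in any replicate 2 library. The first region (91055287 to 91055668) and the second (91061728 to 91062013) were listed in siMena11a replicate 1 and in no other library, with folds of 4.74 and 3.33 on 8 and 9 tags. The second had a −log10 q of 2.10, just above the end of the lists at 2, so it was close to not being listed at all.

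In the OAS window, the second region and the third were listed in all 4 replicate 1 libraries and in no replicate 2 library. The second, on chromosome 12 from 113376012 to 113376440, had folds of 5.46 in siMena11a, 5.66 in siMena, 5.31 in siControl and 6.44 in untreated replicate 1. They rest on 12 tags in siMena11a, 11 in siMena, 11 in siControl and 12 in untreated cells, and are close to each other in the 3 transfected libraries. The third, from 113416054 to 113416681, varied more, with folds of 5.43 in siMena11a, 4.12 in siMena, 6.20 in siControl and 7.96 in untreated replicate 1. Its untreated fold stood on 17 tags and was the highest of that library's members, and its siMena fold stood on 7 tags. The first region, from 113344573 to 113345066, was listed in siMena11a replicate 1 alone, where it held 2 summits and a highest fold of 5.56 on 10 tags. OAS1, OAS3 and OAS2, the sensors of double-stranded RNA, follow each other in this window, but the regions were not assigned to them.

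In the MX window, the second region and the third were listed in 4 libraries each. The second, on chromosome 21 from 42792064 to 42792799, was the widest member. Its fold was 6.12 in siMena11a replicate 1, 6.25 in siControl replicate 1, and 5.88 and 4.52 in untreated replicates 1 and 2. It was not listed in either siMena library. The third, from 42797890 to 42798232, had folds of 6.64 in siMena11a, 3.82 in siMena, 4.04 in siControl and 6.58 in untreated replicate 1. Its tags were 18 in siMena11a, 9 in siMena, 10 in siControl and 14 in untreated cells. By both measures siMena11a and untreated lay high and siMena and siControl low at this region. The fifth region (42832474 to 42832795) was listed in siMena11a and untreated replicate 1, with folds of 5.43 and 5.60. The fourth (42798359 to 42798583) was listed in untreated replicate 1 alone, with a fold of 5.26. It starts close to the end of the third region, which all 4 replicate 1 libraries listed, and whether it is a separate site was not tested. The first (42768714 to 42768939) was listed in siControl replicate 1 alone, with a fold of 8.70 on 19 tags and a −log10 q of 13.4, the highest fold of any member. Its fold exceeded that of 80.7% of the regions of its own list, whereas no other library listed it.

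In the ISG15 window, the second region, on chromosome 1 from 948675 to 949131, was listed in siMena11a replicate 1 alone, with a fold of 5.19. It stood on 21 tags, the most of any member, over a local background of 3.24 tags. The first region (935453 to 935904) was also listed there alone, with a fold of 4.57 on 18 tags over a local background of 3.16. These local backgrounds were the highest of all members and over 3 times the genome-wide 0.881 of that library. The third region (954828 to 955159) had folds of 4.83 in siMena and 4.74 in untreated replicate 1. No siControl library listed any region of this window.

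**Figure D4:**
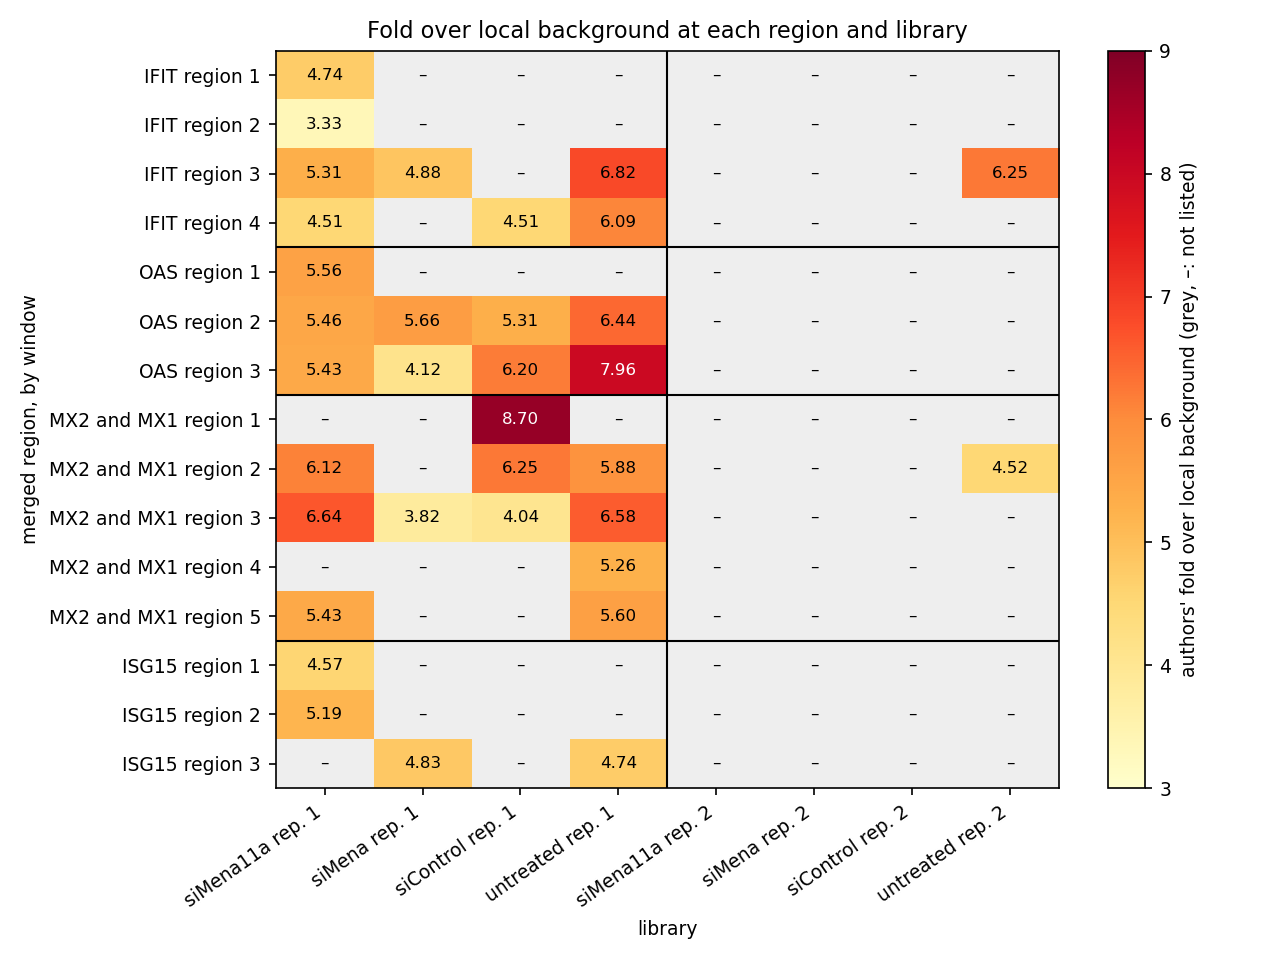
Authors' fold over local background for each of the 15 regions (rows, by window) in each library (columns), with grey cells where no peak was listed. The siMena11a replicate 1 column is filled in 12 rows, 5 of which have no other filled cell, and the transfected replicate 2 columns are empty.

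Silencing of the 11a isoform was set against the non-targeting siRNA to ask whether these interferon target loci open with it. Neither siMena11a replicate 2 nor siControl replicate 2 listed a member, so the counts of members open in both libraries of a group could only be 0 and do not answer it. Over all regions, 0.0279% were open in both siMena11a and neither siControl library, and 0.0557% showed the opposite pattern. Within replicate 1, 7 members were listed in siMena11a and not in siControl, against 24.2% of all regions: the first 3 IFIT regions, the first OAS region, the fifth MX region and the first 2 ISG15 regions. The MX region from 42768714 was listed the other way round, against 6.25% of all regions. Taken over what siMena11a replicate 1 listed, siControl replicate 1 lacked 7 of 12 members and 52.4% of the regions in the same fold range, so the members' share was near that of regions of like fold. At the 5 members listed in both libraries, the median log2 ratio of siMena11a over siControl fold was 0.00, beside 0.13 over the 23530 regions listed in both. It ran from -0.19 to 0.72, the highest at the third MX region, above the upper decile of all these regions, 0.58.

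Mean shares of members listed were 40.0 ± 56.6% in siMena11a and 20.0 ± 28.3% in siControl libraries (SD, n = 2 each). Their difference of 20.0 percentage points was far smaller than the spread between the replicates (two-sided exact permutation p = 1), and with 2 libraries against 2 the smallest possible p is 0.333. Over all regions the mean shares differed by 6.50 percentage points (siMena11a minus siControl). Set against list length, siMena11a replicate 1 held 3.38 window peaks per 10000 listed peaks (95% exact interval 1.75 to 5.91) and siControl replicate 1 held 2.20 (0.806 to 4.78). The group means were 1.69 ± 2.39 in siMena11a and 1.10 ± 1.55 in siControl libraries (SD, n = 2 each, two-sided exact permutation p = 1).

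The 5 regions that siMena11a replicate 1 listed and no other library did lay in 3 windows: 2 IFIT, 1 OAS and 2 ISG15 regions. They were 33.3% of the members, against 11.1% of all regions with this pattern. Of the 12 members on that list they were 5, against 26.1% of its regions in the same fold range. The library has the longest list of the series. When its list was shortened by −log10 q to 27304 peaks, the length of the siControl replicate 1 list, 2 of the 5 were left, both in the ISG15 window. Shortened to the same length by fold, 1 was left, the first OAS region, so which regions were left depended on the ranking. By either ranking, 3 members in place of 7 were listed there and absent from siControl replicate 1. With the replicate 1 lists held by −log10 q to 14678 peaks, the full length of the siMena list, none was left. siMena11a replicate 1 then listed 0 members, siControl 1 and untreated 1. The siMena list was not cut, so its 5 members were kept by construction. The share of all regions that keep these patterns in shortened lists is not given here. The drops thus do not set members apart from regions in general. siMena11a replicate 2 listed none of the 5 regions listed in siMena11a replicate 1 alone.

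Silencing of hMENA as a whole was set against the same control for the same question. The counts of members gained and lost could again only be 0, since replicate 2 of both groups listed none, beside 0.00214% of all regions gained and 1.03% lost. Within replicate 1, siMena listed 2 members that siControl lacked, the third IFIT region and the third ISG15 region, against 1.81% of all regions. It lacked 3 that siControl listed, the fourth IFIT and the first and second MX regions, against 28.2% of all regions. Of the 5 members of siMena replicate 1, siControl replicate 1 lacked 2, against 9.58% of the regions in the same fold range. Of the 6 members of siControl replicate 1, siMena replicate 1 lacked 3, against 57.4% of the regions in their fold range. All 5 members of siMena replicate 1 were also listed in untreated replicate 1, as were 93.2% of the regions in the same fold range. The mean share listed was 16.7 ± 23.6% in siMena and 20.0 ± 28.3% in siControl libraries (SD, n = 2 each, two-sided exact permutation p = 1). The mean shares over all regions differed by -17.6 percentage points (siMena minus siControl). Per 10000 listed peaks the windows held 3.41 (95% exact interval 1.11 to 7.95) in siMena replicate 1, beside 2.20 in siControl replicate 1. The group means of 1.70 ± 2.41 in siMena and 1.10 ± 1.55 in siControl libraries differed by less than their spread (SD, n = 2 each, two-sided exact permutation p = 1). Between these groups, the share of members listed was thus lower in siMena and the share of listed peaks higher, both within the spread.

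To ask what transfection by itself does, siControl was compared with untreated cells. The third IFIT region was lost, 1 of 15 members (6.67%) beside 3.65% of all regions. As siControl replicate 2 listed no member, this call rests on absence from siControl replicate 1. Only the 2 members listed in both untreated libraries could be lost. For the same reason a gain, seen in 0.12% of all regions, was not possible for a member. Replicate 1 of siMena11a and of siMena, also transfected, listed the region at folds of 5.31 and 4.88, while replicate 2 of both did not list it. Within replicate 1, siControl lacked 4 members that untreated cells listed, against 22.7% of all regions, and listed the MX region from 42768714 that untreated cells lacked, against 6.93%. Within replicate 2, siControl lacked both members of the untreated list, against 36.6% of all regions. Of the 9 members of untreated replicate 1, siControl replicate 1 lacked 4, against 41.6% of the regions in the same fold range. The mean share listed was 20.0 ± 28.3% in siControl and 36.7 ± 33.0% in untreated libraries (SD, n = 2 each, two-sided exact permutation p = 0.667). The mean shares over all regions differed by -25.7 percentage points (siControl minus untreated). At the 5 members listed in both replicate 1 libraries, the median log2 ratio of siControl over untreated fold was -0.36, with 4 of 5 below 0, beside a median of -0.21 and 72.9% below 0 over 23212 regions. Per 10000 listed peaks the group means were 1.10 ± 1.55 in siControl and 1.96 ± 0.884 in untreated libraries (SD, n = 2 each, two-sided exact permutation p = 0.667). The 2 members of untreated replicate 2 count here as 3 peaks (1.34 per 10000), since the third IFIT region holds 2 separate peaks in that library.

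The knockdown of the isoform was set against that of hMENA as a whole. Here too replicate 2 of both groups listed no member, so 0 gained and 0 lost members carry no information, beside 0.24% of all regions gained in siMena11a relative to siMena and 0.00643% lost. Within replicate 1, siMena11a listed 8 members that siMena lacked, against 45.5% of all regions, and lacked the third ISG15 region, against 1.07%. Over the members of siMena11a replicate 1, siMena replicate 1 lacked 8 of 12, while it lacked 83.5% of the regions in the same fold range. At the 4 members listed in both, the median log2 ratio of siMena11a over siMena fold was 0.26, beside 0.41 over 13610 regions. Mean shares listed were 40.0 ± 56.6% in siMena11a and 16.7 ± 23.6% in siMena libraries, and the group means of window peaks per 10000 listed peaks were nearly equal, 1.69 ± 2.39 in siMena11a and 1.70 ± 2.41 in siMena libraries (SD, n = 2 each, two-sided exact permutation p = 1 for both). The mean shares over all regions differed by 24.1 percentage points (siMena11a minus siMena), beside 23.3 for the members.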

How the data were processed

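Each library has its own deposited peak list, so replicates were not pooled. The submitters' processing notes name the build hg19, the peak caller MACS2 (2.2.5), the aligner Bowtie2 (2.3.4.2), SAMtools (1.7) and FastQC (0.11.5). Trimming, duplicate removal and the transposase shift are not given in the sources used here. The deposited score is 10 times −log10 q, the deposited fold divides summit pileup by local background, with 1 added to both, and −log10 p and −log10 q are the authors' values, all above 2 for q.

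Overlapping or touching peaks (distinct intervals) of the 8 lists were joined into regions. A region counted as listed where at least 1 bp of it was covered by a peak. The highest fold was used. Tags and local background were recovered from fold and −log10 p within 0.001 for 100% of rows, with the Poisson formula of the caller, and the genome-wide background is the most frequent local background. Gained means open in both libraries of the first group and neither of the second, and lost the reverse. Such counts have no test, and group means over libraries were compared by two-sided exact permutation tests. Alternatives are given in the closing section. The code was checked on simulated data.

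Every region was accounted for, with folds per library for regions listed in at least 4 libraries or called in a comparison. The windows, members and motifs were chosen with earlier results of these data known. The work used SciPy 1.17.1, pandas 2.3.3 and numpy 2.4.6 in Python 3.11.15, with matplotlib 3.10.9 for figures.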

Additional observations from a re-analysis of the deposited data

How the results depend on the processing

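The replicate numbers of the labels do not state a shared culture or day, so the groups were not treated as paired. Over all regions, the listing difference between replicates 1 and 2 correlated between the groups compared by 0.35, 0.29, 0.10 and 0.23, in the order of the comparisons. With the replicate number as a block, the differences in the share of members listed were unchanged at 20.0 (siMena11a minus siControl), -3.33 (siMena minus siControl), -16.7 (siControl minus untreated) and 23.3 (siMena11a minus siMena) percentage points, and those in window peaks per 10000 at 0.593, 0.604, -0.864 and -0.0118. In the same order, the counts within replicate 1 were 7, 2, 1 and 8 gained and 1, 3, 4 and 1 lost members. Within replicate 2 no member was gained, and 2 were lost with siControl against untreated. Leaving out a library in turn gave 0 to 7, 0 to 2, 0 to 1 and 0 to 8 gained and 0 to 1, 0 to 3, 1 to 4 and 0 to 1 lost members. The share differences then ran from -20.0 to 60.0, from -23.3 to 16.7, from -40.0 to 6.67 and from -16.7 to 63.3 percentage points. The peaks per 10000 ran from -1.10 to 2.28, from -1.10 to 2.31, from -1.96 to 0.235 and from -1.71 to 1.69. The share difference reversed without siMena11a replicate 1 (-20.0, siMena11a minus siControl, and -16.7, siMena11a minus siMena), without siMena replicate 2 (13.3) or siControl replicate 1 (16.7) for siMena minus siControl, and without siControl replicate 2 (3.33) or untreated replicate 1 (6.67) for siControl minus untreated. Without siControl replicate 2, the share difference of siMena11a minus siControl fell to 0.0 percentage points. The difference per 10000 reversed without siMena11a replicate 1 (-1.10) or siControl replicate 2 (-0.506) for siMena11a minus siControl, and without siMena replicate 1 (-1.10) or siControl replicate 2 (-0.494) for siMena minus siControl. It also reversed without siControl replicate 2 (0.235) for siControl minus untreated, and without siMena11a replicate 2 (1.68) or siMena replicate 1 (1.69) for siMena11a minus siMena. Members lost with siControl against untreated numbered 2 without siControl replicate 1 and 4 without untreated replicate 2. With peaks of a −log10 q of at least 5, the difference per 10000 reversed to -0.403 for siMena minus siControl and to 1.04 for siMena11a minus siMena, and windows wider by 50 kb on each side, which hold more peaks, gave 2.02 for siMena11a minus siMena. The wider windows also moved this difference to 2.87 (siMena11a minus siControl), 0.843 (siMena minus siControl) and -1.81 (siControl minus untreated). In bins of 500 bp, 2 bins rather than 1 region were lost with siControl against untreated. With the 4 lists of a comparison shortened by −log10 q to the same length (2832, 1020, 5231 and 1020 peaks, in the order of the comparisons), each library listed 0 members, so no value could be had.

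Alternatives for the siMena11a replicate 1 list were chosen after seeing the data. Its 5 regions listed in no other library became 3 with a −log10 q of at least 5. They became 2 or 1 with its list shortened by −log10 q or by fold to the siControl replicate 1 length. With all replicate 1 lists at the same length they became 0. Windows wider by 50 kb held 34 regions in place of 15, of which 11 were listed there alone. Its 7 regions absent from siControl replicate 1 became 3 with the list shortened by either and 15 of the 34 regions in the wider windows. No share of all regions is given beside these counts. The causes were not tested. Summits of the members held at most 21 tags.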
